A study of Mus musculus with 4 samples.

Results

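The genes described here are the lectin-like receptors of natural killer (NK) cells and the stress ligands that the NKG2D receptor reads. They were taken as every gene of the deposited count table whose mouse symbol starts with Klr, leaving out 4 pseudogenes, together with Ncr1, Raet1d, Raet1e, H60b and Ulbp1. This gave 31 of 54752 genes, of which 27 encode receptors and 4 encode ligands. RNA of whole mouse abdominal aortic grafts, depleted of ribosomal RNA, had been sequenced 4 weeks after transplantation. The ALLO group held allografts in chronic rejection per the series title, the meaning of ISO is not written in the labels, and each group had 2 libraries. Neither strain, sex, age, donor nor host is given for either group, and the labels do not tie libraries to animals. The p-values therefore reflect the spread between these samples alone. In ALLO that spread may be technical or between animals, which the labels do not settle. Immunoglobulin genes made up 11.2% of the counts in ALLO replicate 1 and 3.08% in ALLO replicate 2. The ISO libraries differed in sex-linked counts, given below, and were not repeats of the same sample.

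NK cells weigh activating against inhibitory receptors. NKG2D, encoded by Klrk1, is an activating receptor of NK cells and of many CD8 T cells, and it recognises MHC class I-like proteins (the RAE-1, H60 and MULT-1 families) that stressed, infected or dividing cells display. CD94 (Klrd1) pairs with NKG2A, an inhibitory chain, or with NKG2C and NKG2E, activating chains, and these pairs bind the non-classical class I molecule Qa-1. The Ly49 receptors (Klra genes) of rodents read classical MHC class I, so that NK cells can respond to tissue lacking self class I. The number and kind of Ly49 genes differ between inbred mouse strains, and counting here was on mm10, an assembly of C57BL/6J.

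The libraries held 17532344 to 20194854 counts. ISO replicate 1 stood apart, with 10647 counts of Xist and none of the Y-linked Ddx3y, where the other libraries had at most 8 and at least 2105. By these counts ISO replicate 1 reads as female and the other libraries as male. The spread within ISO and the comparison with ALLO therefore both include a difference in sex. Smooth muscle markers, which define the tissue, were present in every library and were lower in ALLO in 6 of 6 cases. T cell markers were higher in ALLO in 10 of 10 cases, and their summed level was 14.0 and 4.29 CPM in ISO replicates 1 and 2 against 438 and 361 CPM in the ALLO replicates. CPM is a count scaled to library size, with a correction for composition. The T cell genes Cd3d, Cd3e, Cd3g, Cd8a, Cd8b1 and Cd28 had no counts in ISO replicate 2. Cd3e, a chain of the T cell receptor complex, was at 0.702 and 0 CPM in ISO and 39.1 and 27.1 CPM in ALLO (log2 change 6.52 ± 1.00, edgeR adjusted p = 0.0102), and Cd8a, the CD8 alpha chain, at 0.760 and 0 against 70.2 and 63.2 CPM (7.42 ± 0.94, edgeR adjusted p = 0.00652). NK and innate lymphoid markers were higher in 12 of 14 cases, with sums of 48.6 to 99.8 CPM in ISO and 291 to 295 CPM in ALLO. Most of these ISO sums came from Nfil3 (84.7 and 34.1 CPM), and without it the sums were 15.1 and 14.5 CPM in ISO against 250 and 224 CPM in ALLO. Macrophage and dendritic cell markers were higher in 8 of 8 cases, with sums of 80.0 to 192 CPM in ISO and 1759 to 2095 CPM in ALLO. In whole tissue, fewer cells of a type and less RNA per cell cannot be told apart, and the part of these cell types in the results below was not tested.

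Of the 31 genes, 27 passed the filter on low counts and were tested with edgeR's quasi-likelihood test, and 21 were higher and 1 lower in ALLO at a Benjamini-Hochberg adjusted p of 0.05. Of all 16498 genes tested, 18.4% were called higher (3032) and 14.8% lower (2437), and with scaling by library size alone 3546 were higher and 1867 lower. Among the tested members only Klrg2 and Ulbp1 had 10 counts or more in both ISO libraries. The others owed their place in the test to ALLO libraries, so these counts describe the family and support nothing by themselves. Both ALLO libraries lay above both ISO libraries for 29 of 31 members and below for 1, while 37.1% and 35.4% of all genes tested had these orders. The median log2 change of the tested members was 4.36, or 4.15 with genes absent from ISO at their lower bound, against 0.03 over all genes tested. Leaving out ISO replicate 1 gave a median of 5.45, and leaving out ISO replicate 2 one of 5.37. These medians were not taken at lower bounds. Of the 27 receptors, 8 had no counts in ISO replicate 2 and 12 had none in ISO replicate 1. A log2 change fitted against no counts has no fixed size, so the rise cannot be read as an effect of either library. Without ALLO replicate 1, 11 members were higher and none lower, and without ALLO replicate 2, 13 were higher. For that count of none, 1 member was lower at an unadjusted p under 0.05 by edgeR. Klrk1, Klrd1, Klrc1, Klrc2, Klrb1b, Klre1, Klra2, Klra4, Klra7, Ncr1 and Ulbp1 were the 11 members that passed under all 13 alternative settings tried.

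**Figure D1:**
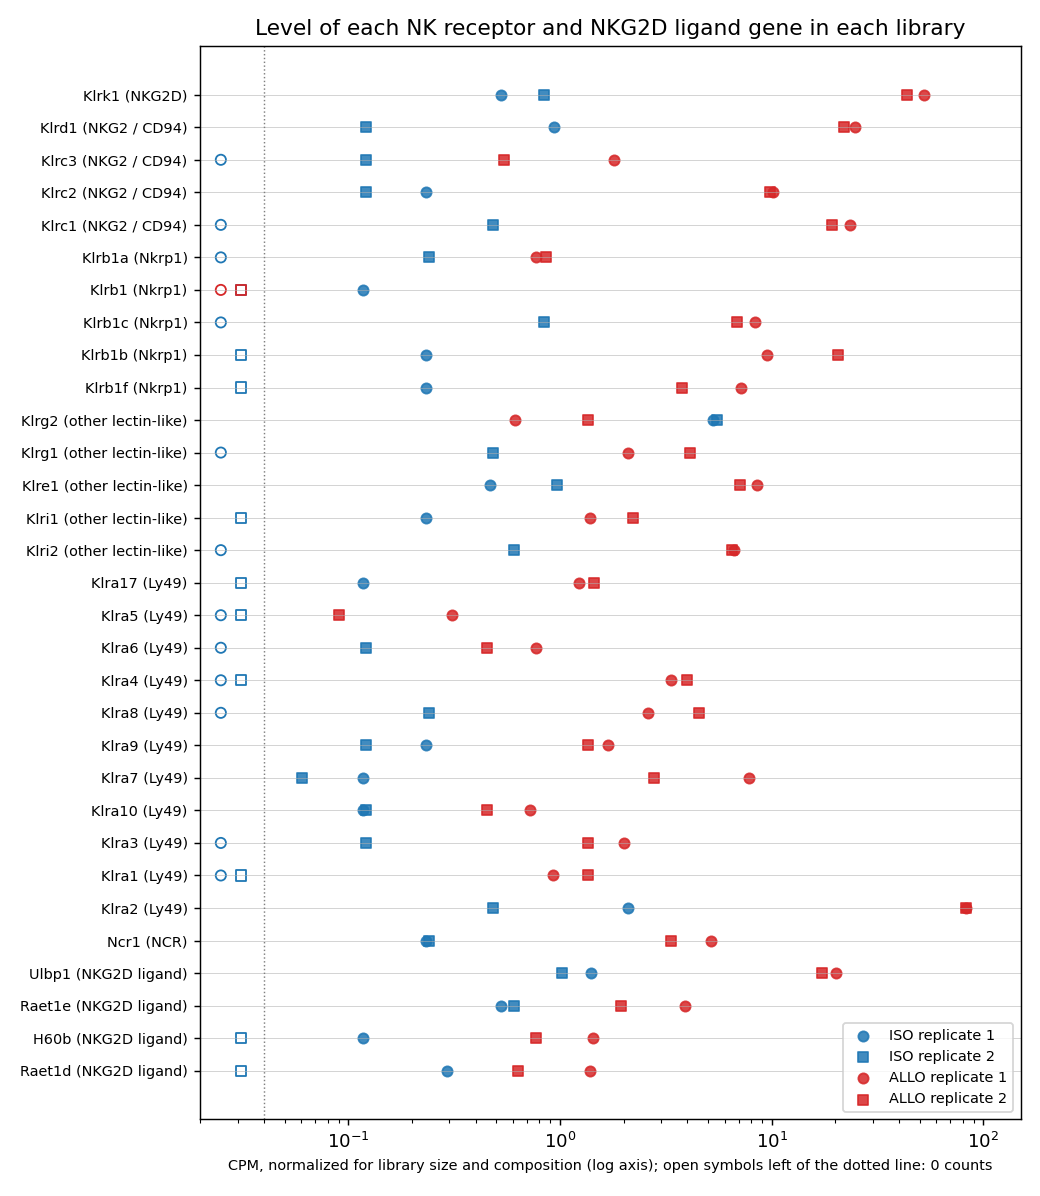
Level of each of the 31 genes in each library, in CPM on a log axis, ordered by role. Blue marks are ISO and red marks ALLO, circles are replicate 1 and squares replicate 2, and open marks left of the dotted line had no counts. Klra2 and Klrk1 reach the highest ALLO levels, and Klrg2 is the gene whose ISO marks lie to the right of its ALLO marks.

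Klrk1, the NKG2D receptor gene (ENSMUSG00000030149.15, chromosome 6, 129610323 to 129623864, mm10, minus strand), was at 0.526 and 0.845 CPM in the ISO replicates and at 52.4 and 43.4 CPM in the ALLO replicates. Both ALLO libraries lay far above both ISO libraries. The means were 0.686 ± 0.225 and 47.9 ± 6.31 CPM (SD, n = 2), and the log2 change was 6.12 ± 0.35 (SE), or 69.3-fold higher (edgeR adjusted p = 0.00216). Of the receptors, it had the smallest standard error. Hcst, which encodes the DAP10 adaptor through which NKG2D signals, was 18.5-fold higher (log2 change 4.21 ± 0.55, edgeR adjusted p = 0.00695). Tyrobp, which encodes the DAP12 adaptor of NKG2D, Ly49 and many myeloid receptors, was 12.5-fold higher (log2 change 3.64 ± 0.62, edgeR adjusted p = 0.0129). In the list of receptor adaptors and proximal signalling genes, 12 of 12 were higher, against 18.4% of all genes tested, with a median log2 change of 4.16. Of the ISO libraries, replicate 1 had the higher level of all 12, and several of them, such as Fcer1g and Syk, also act in myeloid cells.

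The genes of CD94 and its partner chains also had higher levels in ALLO, and all but that of NKG2E were called. Klrd1, the gene of the CD94 chain (ENSMUSG00000030165.16, chromosome 6, 129591782 to 129598775, plus strand), was at 0.936 and 0.121 CPM in ISO and 24.8 and 22.1 CPM in ALLO. It was 43.6-fold higher (log2 change 5.45 ± 0.76, edgeR adjusted p = 0.00811), and leaving out ISO replicate 1 or 2 gave log2 changes of 7.53 or 4.64. Klrc1, the gene of the inhibitory chain NKG2A (ENSMUSG00000030167.15, chromosome 6, 129666015 to 129678973, minus strand), had 0 and 8 counts in ISO and 456 and 425 in ALLO. It was 87.1-fold higher (log2 change 6.44 ± 0.94, edgeR adjusted p = 0.00901), with a log2 change of 5.45 without ISO replicate 1, while no ISO counts were left without ISO replicate 2. In each of these genes the ALLO libraries differed from each other far less than from the ISO libraries.

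Klrc2, the gene of the activating chain NKG2C, had 4 and 2 counts in ISO and 197 and 216 in ALLO. With so few ISO counts the ratio of summed counts is given, 55.9, with a 95% counting interval of 18.9 to 274 (edgeR adjusted p = 0.00364). Such an interval covers counting error only, and says nothing of how libraries vary. Klrc3, the gene of NKG2E, had 0 and 2 counts against 35 and 12, a ratio of 19.1 (95% counting interval 3.18 to 801), and did not pass (edgeR adjusted p = 0.0648), though it did under 2 of 12 alternatives, the DESeq2 Wald test (0.0447) and without ISO replicate 2 (0.0411). Per kilobase of exon, Klrc1 stood at 11.8 and 9.72 RPKM in the ALLO libraries and Klrc2 at 1.74 and 1.69 RPKM. By this measure the level of the inhibitory chain gene was 6.78 and 5.76 times that of the activating chain gene. The exon lengths used were 1984 bases for Klrc1 and 5812 for Klrc2, and the ratio depends on them. Without division by length, the ALLO levels were 23.4 and 19.3 CPM for Klrc1 and 10.1 and 9.80 CPM for Klrc2. These genes are close copies: 36.6% of the 50-base stretches of Klrc1 transcripts also occur in Klrc2. The handling of reads that fit several genes is not given in the sources used here, so the split between the copies is uncertain. H2-T23, which encodes the Qa-1 ligand of these pairs, was at 103 and 120 CPM in ISO and 448 and 511 CPM in ALLO, 4.30-fold higher (log2 change 2.10 ± 0.23, edgeR adjusted p = 0.00479).

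The promoters of Klrk1, Klrc1 and Klrc2 are shown because these genes were all called higher and lie close to each other. Each is the 250 bases before the RefSeq transcription start (build GRCm38.p6, which is mm10), and capitals mark the core motif of Runx factors, TGTGGT or its reverse complement ACCACA. The RefSeq start of Klrc2 lies inside the gene as counted, which reaches to 129660689. Both marked sites of Klrc2 therefore fall within the counted gene and not before it. Ncr1, described below, is added as a receptor outside chromosome 6.
Klrk1 (chr6:129623865-129624114, minus strand): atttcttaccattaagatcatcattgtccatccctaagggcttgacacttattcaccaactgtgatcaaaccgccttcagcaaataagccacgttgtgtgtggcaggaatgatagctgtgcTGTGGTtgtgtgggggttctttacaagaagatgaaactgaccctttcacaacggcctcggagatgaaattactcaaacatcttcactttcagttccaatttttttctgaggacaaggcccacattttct
Klrc1 (chr6:129678974-129679223, minus strand): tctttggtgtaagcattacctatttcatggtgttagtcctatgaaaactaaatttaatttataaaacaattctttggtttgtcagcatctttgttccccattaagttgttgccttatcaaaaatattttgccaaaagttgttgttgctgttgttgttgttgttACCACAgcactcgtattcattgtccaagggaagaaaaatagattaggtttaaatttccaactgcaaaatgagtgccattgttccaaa
Klrc2 (chr6:129660597-129660846, minus strand): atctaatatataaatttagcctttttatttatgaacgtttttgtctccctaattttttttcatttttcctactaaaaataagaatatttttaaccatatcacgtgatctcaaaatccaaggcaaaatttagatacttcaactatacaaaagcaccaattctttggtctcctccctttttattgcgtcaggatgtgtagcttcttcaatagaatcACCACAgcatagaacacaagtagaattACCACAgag
Ncr1 (chr7:4337465-4337714, plus strand): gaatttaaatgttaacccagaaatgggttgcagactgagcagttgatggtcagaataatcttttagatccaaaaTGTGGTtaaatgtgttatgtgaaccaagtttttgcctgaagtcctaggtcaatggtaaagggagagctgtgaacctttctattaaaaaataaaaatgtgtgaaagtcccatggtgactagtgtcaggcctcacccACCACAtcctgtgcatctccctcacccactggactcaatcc

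The RefSeq table held promoters of 27 of the 31 members. The Runx core was present on either strand in 9 of them (33.3%), namely Klrk1, Klrc1, Klrc2, Klrc3, Klre1, Klrb1a, Klrb1c, Klra1 and Ncr1, and in 15.9% of the 27025 genes with a promoter in that table. The T-box motif TCACACC or GGTGTGA was in none of the 27 and in 3.84% of all genes. The Ets motif AGGAAGT or ACTTCCT was in 3 (Klrb1b, Klrb1f and Ulbp1) and in 8.80% of all genes. The STAT motif TTCNNNGAA, which reads alike on both strands, was in 3 (Klra2, Klra7 and Klra10) and in 8.13% of all genes, and the interferon-stimulated response element was in none and in 3.46%. A match describes letters and not binding, and the motifs were searched after values had been seen. Klrc1, Klrc2 and Klrc3 are close copies, so their matches may not be independent, and the Runx share was not tested. Klrc3 and Klrb1a, which hold the Runx core, were not called higher.

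Among the Nkrp1 receptors, which read C-type lectins of the Clr family, 3 of 5 were higher, against 18.4% of all genes tested. Klrb1b, an inhibitory receptor (ENSMUSG00000079298.9, chromosome 6, 128813706 to 128826331, minus strand), had 4 and 0 counts in ISO and 185 and 454 in ALLO, 130 times as many (95% counting interval 35.7 to 1077, edgeR adjusted p = 0.00815). Its level in ALLO replicate 2 was the higher of the ALLO libraries, and both lay above ISO. Klrb1c, the gene of the NK1.1 antigen, had 0 and 14 counts in ISO and 163 and 152 in ALLO, a log2 change of 4.17 ± 1.16 (edgeR adjusted p = 0.0467). Its call was lost without ALLO replicate 1 (edgeR adjusted p = 0.133), without ALLO replicate 2 (0.101), with a mean count of 10 or more and with the DESeq2 Wald test. Over all alternatives its adjusted p ranged from 0.000448 to 0.148, and without ISO replicate 1 its log2 change was 3.17, while ISO replicate 1 alone had no counts.

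Klrb1f, an activating receptor, had 4 and 0 counts against 139 and 83, 45.0 times as many (95% counting interval 12.2 to 377, edgeR adjusted p = 0.0181), a call lost without ALLO replicate 1 (0.0669, the highest over its alternatives, with a lowest of 1.89e-06). Klrb1a had 0 and 4 counts against 15 and 19 and did not pass (edgeR adjusted p = 0.141), except without ISO replicate 2 (0.0485), and Klrb1 was seen only as 2 counts in ISO replicate 1. Klrb1b and Klrb1c share 26.9% and 13.9% of their exonic bases with the gene model Gm44511, which had no counts. Clec2i, which encodes the Clr-g ligand of Klrb1f, was 60.9-fold higher (log2 change 5.93 ± 0.54, edgeR adjusted p = 0.00379). For Clec2d, which encodes the Clr-b ligand of Klrb1b, the log2 change was 1.20 ± 0.44 and did not pass (edgeR adjusted p = 0.0956). Of the 10 genes listed as ligands of lectin-like receptors other than NKG2D, 7 could be tested. Of these, 6 were higher and none was lower, against 18.4% and 14.8% of all genes tested, with a median log2 change of 2.33.

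**Figure D2:**
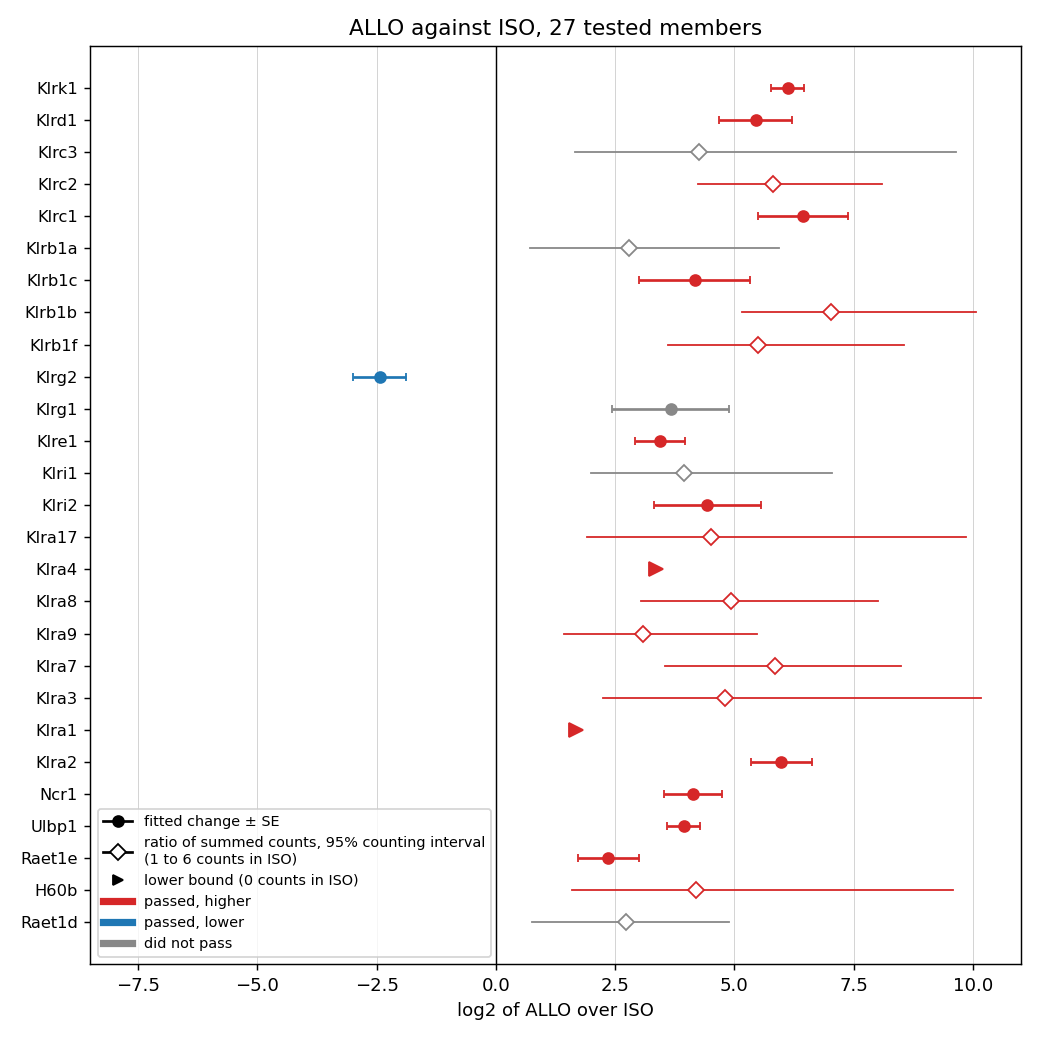
Change of the 27 tested genes as log2 of ALLO over ISO. Filled circles are fitted changes with their SE, open diamonds are ratios of summed counts with 95% counting intervals for genes with 1 to 6 ISO counts, and triangles are lower bounds for genes with none. Red genes passed as higher, the blue gene (Klrg2, -2.44) as lower, and grey genes did not pass.

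Klre1, whose product pairs with the inhibitory Klri1 or the activating Klri2 chain, was at 0.468 and 0.966 CPM in ISO and 8.53 and 7.13 CPM in ALLO. It was 10.9-fold higher (log2 change 3.44 ± 0.52, edgeR adjusted p = 0.00954), with log2 changes of 3.01 without ISO replicate 1 and 4.05 without ISO replicate 2. Klri2 had 0 and 10 counts in ISO and 130 and 144 in ALLO, a log2 change of 4.44 ± 1.12 (edgeR adjusted p = 0.0351). That call was lost without either ALLO library (edgeR adjusted p = 0.100 without replicate 1 and 0.0896 without replicate 2, in a range of 5.50e-05 to 0.100 over its alternatives), and the log2 change was 3.44 without ISO replicate 1. Klri1 had 4 and 0 counts against 27 and 49, a ratio of 15.4 (95% counting interval 3.98 to 132), just outside the threshold (edgeR adjusted p = 0.0548). It passed under 6 of 13 alternatives, 5 of which kept all libraries, with adjusted p from 0.0123 to 0.157 over all of them. H60b, described below, lay just inside it.

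Klrg1, an inhibitory receptor for E-cadherin that marks differentiated NK and CD8 T cells, was at 0 and 0.483 CPM in ISO and 2.11 and 4.13 CPM in ALLO. The groups did not overlap, but the change of 3.67 ± 1.23 did not pass (edgeR adjusted p = 0.0756). It passed under 4 alternatives that kept all libraries, namely no filter (edgeR adjusted p = 0.0408), halved counts (0.0408), the replicate block (0.0399) and the DESeq2 Wald test (0.0115). It also passed without ISO replicate 2, where no ISO counts were left (0.00560), and the highest value was 0.210. Cdh1, which encodes E-cadherin, had 4 and 1 counts in ISO and 285 and 287 in ALLO, 92.8 times as many (95% counting interval 26.2 to 377, edgeR adjusted p = 0.00374).

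Klrg2 was the exception in direction. This gene (ENSMUSG00000071537.6, chromosome 6, 38625693 to 38637242, minus strand) lies far from the receptor cluster and was at 5.26 and 5.55 CPM in ISO and 0.617 and 1.36 CPM in ALLO. It was 5.41-fold lower in ALLO (log2 change -2.44 ± 0.55, edgeR adjusted p = 0.0269). Leaving out ALLO replicate 2 gave a log2 change of -3.10, and without ALLO replicate 1 it was -1.95 and the call was lost (edgeR adjusted p = 0.0669, the highest over its alternatives, with a lowest of 0.00157). Smooth muscle markers also fell in ALLO, from summed levels of 28261 and 28339 CPM to 1157 and 2402 CPM, and their part in this result was not tested.

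The Ly49 family held 11 members, of which 8 were tested and higher and 3 had too few counts. All 8 owed their place in the test to ALLO libraries, and 18.4% of all genes tested were higher. Klra2, which encodes Ly49B, an inhibitory member known from myeloid cells (ENSMUSG00000030187.15, chromosome 6, 131219223 to 131247362, minus strand), was at 2.10 and 0.483 CPM in ISO and 82.5 and 82.9 CPM in ALLO. It was 63.3-fold higher (log2 change 5.98 ± 0.64, edgeR adjusted p = 0.00479), with log2 changes of 7.40 without ISO replicate 1 and 5.29 without ISO replicate 2. In the ALLO libraries Klra2 gave 79.4% and 82.3% of all Ly49 counts (95% Wilson intervals 76.8% to 81.8% and 79.9% to 84.4%), and in the ISO libraries 78.3% and 38.1% (58.1% to 90.3% and 15.9% to 66.6%). Per kilobase of exon it stood at 43.5 and 43.7 RPKM in ALLO and was the most abundant member. Set against the summed CPM of the 8 macrophage and dendritic cell markers, Klra2 was at 1.10% and 0.603% in ISO and at 3.94% and 4.72% in ALLO, a sum made up largely of Csf1r, Adgre1 and Mrc1. Of these 8 markers, Itgax and Xcr1 had larger log2 changes than Klra2, and the others had smaller ones. The ratio of Klra2 to Itgax CPM was 1.12 and 0.348 in ISO and 0.614 and 0.364 in ALLO. The ALLO ratios thus lay between the ISO ratios, which rest on 36 and 8 counts of Klra2. This comparison was added after the values were seen, with a marker that had risen more than Klra2. No exact permutation test of 2 against 2 libraries can give a two-sided p below 0.333, so these ratios were not tested.

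Klra17, the gene of Ly49Q, an inhibitory receptor of plasmacytoid dendritic and myeloid cells, had 2 and 0 counts in ISO and 24 and 32 in ALLO, 22.7 times as many (95% counting interval 3.76 to 929, edgeR adjusted p = 0.0341). The activating members were Klra4 (Ly49D) and Klra8 (Ly49H), both of which signal through DAP12. Klra4 had no counts in either ISO library and 65 and 88 in ALLO, at least 10.3-fold higher against a floor of 6 counts per library (edgeR adjusted p = 0.00885). Klra8 had 0 and 4 counts against 51 and 100, 30.6 times as many (95% counting interval 8.25 to 259, edgeR adjusted p = 0.0277).

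Klra7 (Ly49G), an inhibitory receptor, had 2 and 1 counts in ISO and 152 and 61 in ALLO, 57.6 times as many (95% counting interval 11.7 to 363, edgeR adjusted p = 0.0106). Its fitted log2 change was 4.89 with ALLO replicate 1 left out and 6.36 with ALLO replicate 2 left out. The inhibitory genes Klra1 (Ly49A), Klra3 (Ly49C) and Klra9 (Ly49I) were called at lower levels. Klra1 had no ISO counts and 18 and 30 in ALLO, at least 3.21-fold higher (edgeR adjusted p = 0.0221). Klra3 had 0 and 2 counts against 39 and 30, 28.0 times as many (95% counting interval 4.77 to 1154, edgeR adjusted p = 0.0295), and Klra9 4 and 2 against 33 and 30, or 8.52 times as many (2.71 to 44.2, edgeR adjusted p = 0.0304). The calls of Klra1, Klra3, Klra8, Klra9 and Klra17 were lost when either ALLO library was left out. Of these, Klra3 and Klra9 also lost theirs without ISO replicate 1, and Klra9 and Klra17 without ISO replicate 2 and with the replicate block. Klra9 was also lost with no filter (0.0527).

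Klra5, Klra6 and Klra10 were not tested, with 6 and 2, 15 and 10, and 14 and 10 counts in the ALLO libraries and 0 to 2 counts in each ISO library. Sequence copies limit the family: 33.1% of the 50-base stretches of Klra8, 31.5% of Klra9, 20.7% of Klra3, 39.8% of Klra10 and 12.3% of Klra7 also occur in another gene, while none of those of Klra2 and Klra17 do. The pseudogene Klra13-ps, the closest copy of Klra7, had 0 and 13 counts in ISO and 153 and 110 in ALLO. Classical class I ligands of Ly49 receptors were also higher in ALLO, with H2-K1 5.04-fold (log2 change 2.33 ± 0.34, edgeR adjusted p = 0.00895) and H2-D1 3.60-fold (1.85 ± 0.35, edgeR adjusted p = 0.0164). Strains are not given and counting was on mm10, so how reads of other class I alleles were counted is not known.

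**Figure D3:**
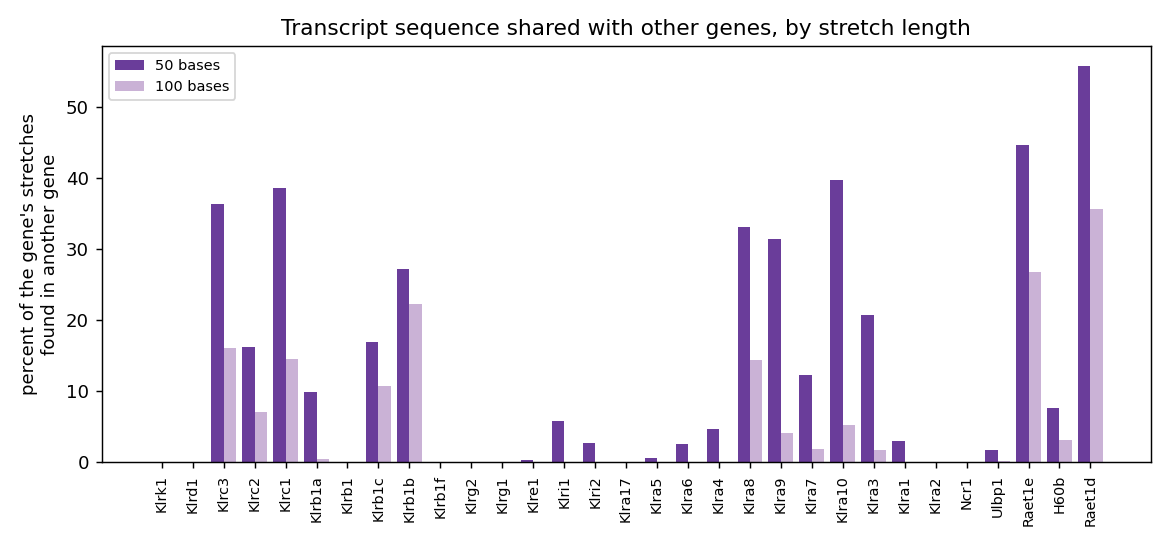
Share of each gene's transcript stretches of 50 bases (dark bars) and 100 bases (light bars) that also occur in a transcript of another gene, in percent. Raet1d (55.8%) and Raet1e (44.7%) share the most at 50 bases, and Klrk1, Klrd1, Klra2 and Ncr1 share none.

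Promoters of Klra4, Klra8 and Klra2 are shown to compare Ly49 genes of lymphoid and myeloid cells. Capitals mark the longest run of letters that all 3 share, 15 bases, which begins 83, 84 and 75 bases before their starts.
Klra4 (chr6:130067272-130067521, minus strand): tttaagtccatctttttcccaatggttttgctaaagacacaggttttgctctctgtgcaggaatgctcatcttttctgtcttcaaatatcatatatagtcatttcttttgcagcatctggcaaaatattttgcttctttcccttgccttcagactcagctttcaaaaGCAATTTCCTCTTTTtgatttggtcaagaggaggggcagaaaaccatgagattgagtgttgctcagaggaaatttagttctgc
Klra8 (chr6:130129899-130130148, minus strand): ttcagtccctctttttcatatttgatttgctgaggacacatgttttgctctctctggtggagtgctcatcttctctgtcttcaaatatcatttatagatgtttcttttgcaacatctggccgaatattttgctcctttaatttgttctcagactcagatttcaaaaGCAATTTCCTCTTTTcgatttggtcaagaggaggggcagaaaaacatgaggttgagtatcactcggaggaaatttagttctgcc
Klra2 (chr6:131247363-131247612, minus strand): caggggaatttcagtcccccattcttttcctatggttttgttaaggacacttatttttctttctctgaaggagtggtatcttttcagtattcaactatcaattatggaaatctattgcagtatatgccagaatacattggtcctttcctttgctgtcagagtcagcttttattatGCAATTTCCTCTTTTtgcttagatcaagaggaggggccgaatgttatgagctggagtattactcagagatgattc

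This run was present in 7 Ly49 promoters (Klra2, Klra3, Klra4, Klra6, Klra8, Klra9 and Klra17) and in 0.0333% of all 27025 genes, which is 9 genes. Its presence in Klra2, Klra4 and Klra8 was fixed in advance, because the run was taken from them. By global alignment, the 250 bases of Klra4 and Klra8 were 84.5% identical and those of Klra4 and Klra2 70.1%. Klra17 was 79.0% identical to Klra4 and 74.6% to Klra2. Over the 10 pairs of Klra2 with another Ly49 gene the median identity was 47.7%, and over the 36 pairs with neither Klra2 nor Klra17 it was 46.3%. Klra2, the most abundant of the family in ALLO, had no Runx core in its 250 bases, and neither had Klra4 or Klra8.

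Ncr1, which encodes the activating receptor NKp46 of NK cells and some innate lymphoid cells and is no lectin (ENSMUSG00000062524.4, chromosome 7, 4337724 to 4345164, plus strand), was at 0.234 and 0.241 CPM in ISO and 5.19 and 3.36 CPM in ALLO. It was 17.5-fold higher (log2 change 4.13 ± 0.60, edgeR adjusted p = 0.00888). Its promoter, printed above, holds the Runx core on both strands. Eomes, a transcription factor of NK and CD8 T cells, had 2 and 0 counts in ISO and 100 and 107 in ALLO, and Tbx21, the gene of T-bet, 5 and 0 against 173 and 206. Both were called higher (edgeR adjusted p = 0.00900 and 0.0108). Il2rb, a receptor chain for interleukins that NK cells need, was 30.4-fold higher (log2 change 4.92 ± 0.20, edgeR adjusted p = 0.00214). Trdc, the constant region gene of the delta T cell receptor chain, was 33.6-fold higher (log2 change 5.07 ± 0.64, edgeR adjusted p = 0.00636). Of the 5 gamma-delta T cell markers listed, 3 were tested, with 2 higher and 1 (Sox13) lower, and of 5 B cell markers none passed by edgeR, with sums of 38.6 and 0.422 CPM in ISO and 242 and 106 CPM in ALLO.

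On the ligand side, 3 of 4 genes were called higher, where 18.4% of all genes tested were. Apart from Ulbp1, these genes owed their place in the test to ALLO libraries. Ulbp1, the gene of MULT-1, a high-affinity ligand of NKG2D (ENSMUSG00000079685.10, chromosome 10, 7440362 to 7473638, minus strand), was at 1.40 and 1.03 CPM in ISO and 20.2 and 17.2 CPM in ALLO. It was 15.3-fold higher (log2 change 3.94 ± 0.35, edgeR adjusted p = 0.00364), and its ISO levels, from 24 and 17 counts, were the best measured of the ligands. Per kilobase of exon it stood at 3.00 and 2.56 RPKM in ALLO, within the range of Ncr1 (3.37 and 2.18 RPKM) and below Klrk1 (7.29 and 6.05 RPKM).

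Raet1e, the gene of RAE-1 epsilon, was at 0.526 and 0.604 CPM in ISO and 3.91 and 1.95 CPM in ALLO, 5.13-fold higher (log2 change 2.36 ± 0.63, edgeR adjusted p = 0.0423). This call was lost without ISO replicate 1 (edgeR adjusted p = 0.109), ISO replicate 2 (0.0991) or ALLO replicate 1 (0.172). With all libraries kept it did not pass under limma-voom (0.0709), the replicate block (0.0753) or the filter on mean count (0.0514), and the lowest value was 0.0183. H60b had 2 and 0 counts against 28 and 17, 18.3 times as many (95% counting interval 3.03 to 769, edgeR adjusted p = 0.0489), a call lost without ISO replicate 2 (0.128), ALLO replicate 1 (0.185) or ALLO replicate 2 (0.0893). With all libraries kept it was lost with no filter (0.0743), a mean count of 10 or more (0.0653) and the replicate block (0.0684). The lowest adjusted p with all libraries kept was 0.0412, by the DESeq2 Wald test. Raet1d had 5 and 0 counts against 27 and 14, a ratio of 6.65 (1.70 to 29.7), and did not pass (edgeR adjusted p = 0.158), except without ISO replicate 1 (0.0372). These genes overlap on chromosome 10, where Raet1e shares exonic bases with both others, among them 25.2% of those of Raet1d. Of 5 further NKG2D ligand genes listed, H60c had no counts in any library. Raet1a, Raet1b, Raet1c and H60a were not among the named genes that had been counted, so their levels are not known.

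Of the 27 receptor genes, 24 lie within 2.64 Mb of chromosome 6 (128609227 to 131247362), the NK gene complex. Among the 20 other genes tested in that span, 12 (60%) were higher, 1 was lower and 7 did not pass. Over all genes tested, 18.4% were higher and 14.8% lower. The 20 genes include Clec2d, Clec2g and Clec2i, which also belong to the ligand list counted above. Ordered by RPKM in ALLO, Klra2 (43.6) was followed by Klrd1 (18.3), Klrc1 (10.8), Klrb1b (6.76), Klrk1 (6.67), Klra7 (4.18), Klra8 (3.04), Klra4 (2.95), Ulbp1 (2.78) and Ncr1 (2.78). Klra2, Klrd1 and Klrc1 did not overlap with their neighbours in the ALLO libraries. From Klrb1b (4.27 and 9.25 RPKM) onward, each gene's ALLO range touched or enclosed that of a neighbour.

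Receptor and T cell marker levels are set side by side for each library, with no test. Leaving out Klra2 and Klra17 for their known myeloid expression, a choice made after values had been seen, the other 22 receptors of the complex summed to 3.45 CPM in ISO replicate 1 (59 counts, 95% counting interval 2.37 to 5.01) and 5.13 CPM in ISO replicate 2 (85 counts, 3.76 to 6.99). These intervals overlap, while all 10 T cell markers were higher in ISO replicate 1. As a share of summed T cell marker CPM, the 22 receptors stood at 24.6% and 120% in ISO and at 40.0% and 44.2% in ALLO, so the ALLO values lay between the ISO values. The 120% rests on 71 T cell marker counts in ISO replicate 2, of which Cd6 gave 47 and Trac 18. Without Cd6, left out after the values were seen, the shares were 36.9% and 354% in ISO and 42.3% and 49.0% in ALLO. With Klra2 and Klra17 included the shares were 40.4% and 131% in ISO and 59.1% and 67.6% in ALLO. Klrk1 alone gave 3.75% and 19.7% in ISO and 12.0% in both ALLO libraries, and Klrb1c gave 0% and 19.7% in ISO and 1.91% in both ALLO libraries. Of the 27 receptors, 12 had more counts in ISO replicate 2, 10 had more in ISO replicate 1, 2 had equal counts and 3 had none in either.

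**Figure D4:**
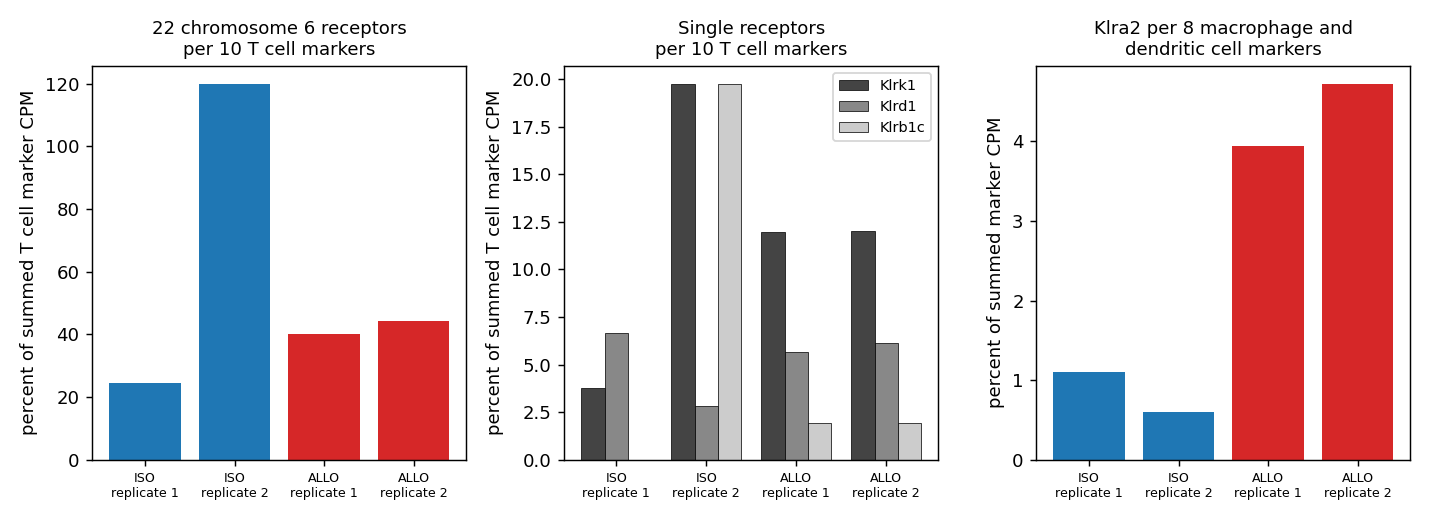
Left, summed CPM of 22 NK complex receptors as percent of the summed CPM of 10 T cell markers in each library, from bars starting at 0, with ISO in blue and ALLO in red. Middle, the same share for Klrk1, Klrd1 and Klrb1c alone. Right, Klra2 as percent of the summed CPM of 8 macrophage and dendritic cell markers. ISO replicate 2 has the highest share on the left (120%, over 71 marker counts), and both ALLO libraries exceed both ISO libraries on the right, where the sum is mostly Csf1r, Adgre1 and Mrc1.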

How the data were processed

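RNA of 2 ISO and 2 ALLO graft libraries was analysed. The deposited values are raw counts for each gene, made by the authors with featureCounts of Subread 1.6.4 on mm10 per the submitters' processing notes, which also name DESeq2 1.30.0 and R 4.0.3. Aligner, annotation release, strand setting and treatment of reads fitting several genes: not given in the sources used here. Exon lengths, used for RPKM, are those of the deposited table. GENCODE M21 named 54723 of 54752 gene IDs.

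The 31 members, the gene lists and the tests were chosen with earlier results of these data known. Genes were filtered with filterByExpr (minimum count 10, leaving 16498 genes), scaled by TMM and compared by the quasi-likelihood test of edgeR 4.0.16 (glmQLFit, glmQLFTest) in a model of group alone. p-values were adjusted by Benjamini-Hochberg over all genes tested, with 0.05 as threshold, and SE belong to the log2 change. Named genes are all members and, from the lists, Hcst, Tyrobp, H2-T23, Cdh1, Clec2d, Clec2i, Eomes, Tbx21, Il2rb, Cd8a, Cd3e and Trdc. Any other gene given a value was chosen after its values were seen. In each library 68.0% to 74.6% of genes with 1 to 20 counts had an even count, as when both mates of a pair are counted. Genes absent from ISO were set against 6 counts in each library, which is 3 pairs, and counting intervals rest on counts halved beforehand. Replicates differed by more than sampling noise (chi-square over degrees of freedom 45.7 in ISO and 154 in ALLO).

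Alternatives were DESeq2 size factors, upper quartile and library size scaling, no filter, a mean count filter, limma-voom (limma 3.58.1), DESeq2 1.42.0 with its Wald test, halved counts, a replicate block and each library left out with the same genes tested. Where a group was left with 1 library, that library was assumed to vary like the others. The procedure was also run on simulated counts in which a small part of the genes was raised. That setting differs from these data, so it does not vouch for the calls of genes nearly absent from ISO. Shared stretches were counted in GENCODE M21 transcripts on both strands, and promoters come from RefSeq (GRCm38.p6). Software was Biopython 1.88, matplotlib 3.10.9, scipy 1.17.1, pandas 2.3.3, Python 3.11.15 and R 4.3.3.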

Additional observations from a re-analysis of the deposited data

How the results depend on the processing

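None of the 27 tested members changed direction under the alternatives that gave it a value, which were all 13 for most and 11 or 12 for some. Klrb1, Klra5, Klra6 and Klra10 were not followed. Over the 9 alternatives that kept all libraries, the number of members called higher ranged from 18 (mean count of 10 or more, and the replicate block) to 23 (DESeq2 Wald test), with 1 lower in each. Leaving out 1 library gave 11 (without ALLO replicate 1) to 20 members higher (without either ISO library) and 0 to 1 lower, and 1998 to 2878 genes higher and 1668 to 2211 lower over all genes tested, against 3032 and 2437. Fewer samples entered these fits. Of the 22 members called, 11 were called without ALLO replicate 1, 14 without ALLO replicate 2, 19 without ISO replicate 1 and 18 without ISO replicate 2. With a replicate block 18 of the 22 were called, and 2766 genes were higher and 2107 lower. Same-numbered libraries share only a number, as the labels name no common source, and their deviations correlated at 0.10 across genes. Scaling by library size alone moved the median of all genes from 0.03 to 0.22 on the log2 scale and left 22 members higher and 1 lower. Low ISO counts limit most folds: 1 of the 27 receptors, Klrg2, had 10 counts or more in both ISO libraries.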

Other observations

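In the list of NK cell and innate lymphoid markers, Nfil3, a transcription factor of NK development that other cells also use, had 1448 and 565 counts in ISO and 796 and 1575 in ALLO, with a log2 change of -0.08 ± 0.50 (edgeR adjusted p = 0.919). Gzma, the granzyme A gene, had 22 and 49 counts in ISO and 124 and 108 in ALLO and did not pass (log2 change 1.41 ± 0.54, edgeR adjusted p = 0.106). Gzma, Gzmb and Prf1 had more counts in ISO replicate 2 (49, 24 and 35) than in ISO replicate 1 (22, 9 and 9), the order opposite to that of the T cell markers. Of the 14 markers in this list, 8 were higher in ISO replicate 1, 4 were higher in ISO replicate 2 and 2 were at 0 in both. The chemokine gene Xcl1 and the receptor gene Il12rb2 had no ISO counts and were at least 7.45-fold and 8.37-fold higher in ALLO. Genes of this paragraph were chosen after their values were seen.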
